A study of Homo sapiens with 14 samples.

Results

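The genes described are 5 facilitative glucose carriers of the SLC2A family (SLC2A1, SLC2A3, SLC2A6, SLC2A8, and SLC2A12), 3 hexokinases (HK1, HK2, and HKDC1), and GPI, the isomerase that follows the hexokinases. They were taken by gene name from RNA-seq count files and are 9 of the 59471 gene names counted. The cells were SCC23, an established line of head and neck squamous cell carcinoma (HNSCC), in which both the KMT2D-KO and the KMT2D-WT cells had received a plasmid with Cas9 and GFP. The guide was against the histone methyltransferase gene KMT2D in KMT2D-KO cells and against LacZ in KMT2D-WT cells. GFP-positive cells were sorted, and the study's methods describe no cloning of single cells, so each of the knockout lines KO1 and KO2 may be a mixture of edited alleles. Of the 14 libraries of polyA RNA, 3 KMT2D-WT and 4 KMT2D-KO libraries (2 of each line) came from cells in high-glucose medium and the same numbers from cells deprived of glucose for 6 h. They came from 2 experiments. In each glucose condition, experiment 1 held 1 library each of WT, KO1, and KO2, and experiment 2 held 2 WT libraries and 1 library of each line. Of the 9 genes, 8 passed the filter on low counts in every comparison, and SLC2A3 passed it in none.

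Glucose enters most cells down its gradient through SLC2A carriers in the plasma membrane, while some members of the family sit in endosomes or lysosomes. A hexokinase then phosphorylates glucose to glucose 6-phosphate, which traps it in the cell, and GPI converts glucose 6-phosphate to fructose 6-phosphate, the second step of glycolysis. SLC2A1 and HK2 are known for high levels in many carcinomas, and SLC2A1 is also the main carrier of the basal layer of squamous epithelium.

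Several facts about the libraries bear on every value. Total counts ranged from 15669154 to 62968057. The 4 libraries of experiment 2 with glucose (55962793 to 62968057 counts) were counted with both mates of each pair and the other 10 with single reads, so a change with glucose deprivation within experiment 2 cannot be told apart from the change in read layout, and the effects of deprivation are therefore given for experiment 1. The deprived libraries of experiment 2 formed close pairs within each genotype (chi-square per gene 1.65 and 1.71, against 23.0 to 72.7 in 4 other pairs of like genotype), above sampling noise but below any other pair, and each was counted as 1 sample of its own with sums of the pairs as an alternative. Among 45 genes that separated the lines with glucose, 44 in the deprived library of experiment 2 labelled KO1 lay nearer to KO2, so line labels are in doubt there. The deprived KO1 library of experiment 1 stood apart, with KMT2D, the targeted gene, at 19.9 CPM (the count scaled to the library total, here with TMM factors) against 145, 152, and 190 CPM in the 3 other deprived KMT2D-KO libraries and 231 to 239 CPM in deprived KMT2D-WT libraries. With glucose, KMT2D was at 182 and 184 CPM in KO1, 323 and 373 CPM in KO2, and 266 to 279 CPM in WT, so KMT2D mRNA was not below the WT range in each library labelled KO. The study reported KMT2D mutations by sequencing and the knockout by western blot in KMT2D-KO SCC23 cells, which the mRNA level does not address. The epithelial markers TP63, EPCAM, and CDH1 were present in every library (lowest 71.0, 231, and 49.9 CPM), KRT14 ranged from 26.5 to 253 CPM, and KRT5 from 1.50 to 225 CPM. Of other cell types, PTPRC, CD68, PECAM1, and VWF stayed at or under 0.307 CPM, PDGFRB at or under 0.775 CPM, and COL1A1 reached 16.0 and COL3A1 5.26 CPM. The part of these differences in the results was not tested. The labels do not say whether libraries of 1 group came from separate cultures, so p-values measure the spread between these libraries only. In bulk RNA, fewer cells that express a gene and less RNA per cell cannot be told apart.

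Levels between genes were compared per length, as CPM per kb of annotated exon. By the median over 14 libraries the order was GPI (35.1 CPM per kb), HK1 (29.0), HK2 (25.8), SLC2A1 (20.5), SLC2A6 (18.7), SLC2A8 (10.1), HKDC1 (0.556), SLC2A12 (0.145), and SLC2A3 (0.00861). The upper part of this order changed with glucose and experiment. GPI was above HK1 in 8 of 14 libraries, all 6 of experiment 1 and 2 of 8 of experiment 2. HK1 was above HK2 in 6 of 7 libraries with glucose and 1 of 7 without. SLC2A1 was above SLC2A6 in 2 of 7 libraries with glucose and in all 7 without. Over all 14 libraries these neighbours overlapped, whereas HK2 was above SLC2A1 in 13. From SLC2A6 downward, each gene was above the next in all 14 libraries. HKDC1 supplied between 0.460% and 2.06% of the summed per-length counts of the 3 hexokinases in a library, so HK1 and HK2 made up nearly all hexokinase mRNA. SLC2A1 held between 32.4% and 39.9% of the summed per-length counts of the 5 carriers in KMT2D-WT cells with glucose and between 49.6% and 57.1% in deprived KMT2D-KO cells. Its share was 35.6% to 42.9% in KMT2D-KO cells with glucose and 43.0% to 45.9% in deprived KMT2D-WT cells. GPI is annotated over 10680 exonic bases of all its isoforms together, more than any of the other 8 genes. For none of these genes was it measured how many annotated bases were expressed, so the order of close neighbours rests on annotated lengths.

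**Figure D1:**
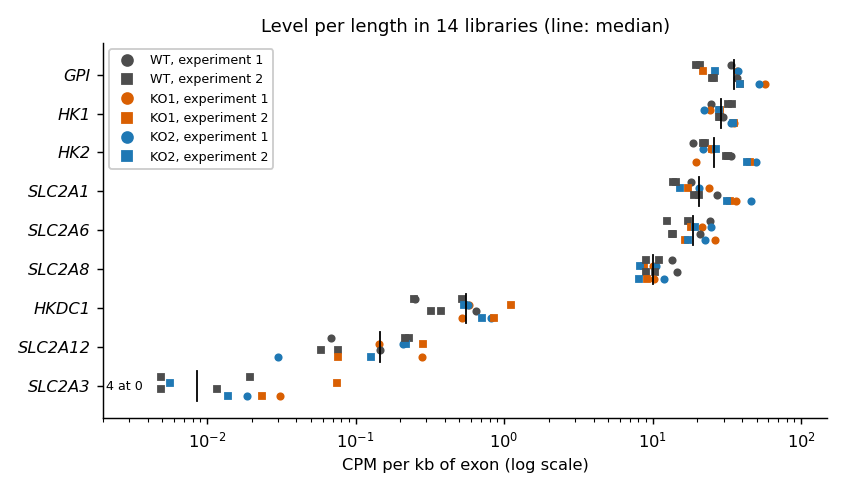
Level of the 9 genes per kb of exon (CPM per kb, log axis) in 14 libraries, coloured by line as labelled and shaped by experiment, with the 4 groups on separate lines within a gene in the order WT with glucose, KO with glucose, WT deprived, and KO deprived. The 6 genes from GPI to SLC2A8 have medians between 10.1 and 35.1, and HKDC1, SLC2A12, and SLC2A3 lie at or below 1.12, with 4 SLC2A3 libraries at 0 given as a number. Vertical lines mark medians.

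Between genotypes, 5 members were called without glucose and 2 with it, where 50.8% and 24.7% of all genes were called. With close pairs summed, 2 members (SLC2A1 and GPI) and 2785 of all genes were called without glucose. SLC2A1, HK1, and GPI were the members called higher after deprivation in KMT2D-KO cells. Genes were called at an adjusted p-value under 0.05 from quasi-likelihood fits in edgeR, adjusted by Benjamini-Hochberg over all genes tested, with experiment as a covariate. With glucose, 2 of 8 members differed between the genotypes, HK2 and HKDC1, both higher in KMT2D-KO cells, where 24.7% of all genes were called. The study itself singled out these 2 genes from these libraries, so their direction here is not independent evidence. It also reported both as higher in KMT2D-KO SCC23 cells by qRT-PCR. Without glucose, 5 of 8 were called, where 50.8% of all genes were called. SLC2A1, GPI, HK1, and SLC2A6 were higher and SLC2A8 was lower in KMT2D-KO cells. The KO effect differed between glucose conditions for 2 of 8 members, HK1 and GPI, where 11.3% of all genes were called. Deprivation changed 3 of 8 members in KMT2D-KO cells, SLC2A1, HK1, and GPI, all higher, where 27.2% of all genes were called. In KMT2D-WT cells, 0 of 8 members were called by edgeR, where 0.182% of all genes were called, 1 member had an unadjusted p under 0.05, and DESeq2 with experiment called 1, in both cases SLC2A1. The WT contrast is taken at experiment 1, where WT has 1 library in each glucose condition. The KO and experiment 2 libraries enter the same additive fit and move its values as well as its spread, and its low count does not show that WT cells did not respond. Read against these background shares, the counts between genotypes were near what 8 of all genes would give. The median log2 fold change of the 8 members was 0.23 with glucose and 0.33 without for KMT2D-KO against KMT2D-WT, and 0.21 in WT and 0.50 in KO for deprivation, where the medians over all genes tested were 0.02, 0.00, -0.01, and 0.00.

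**Figure D2:**
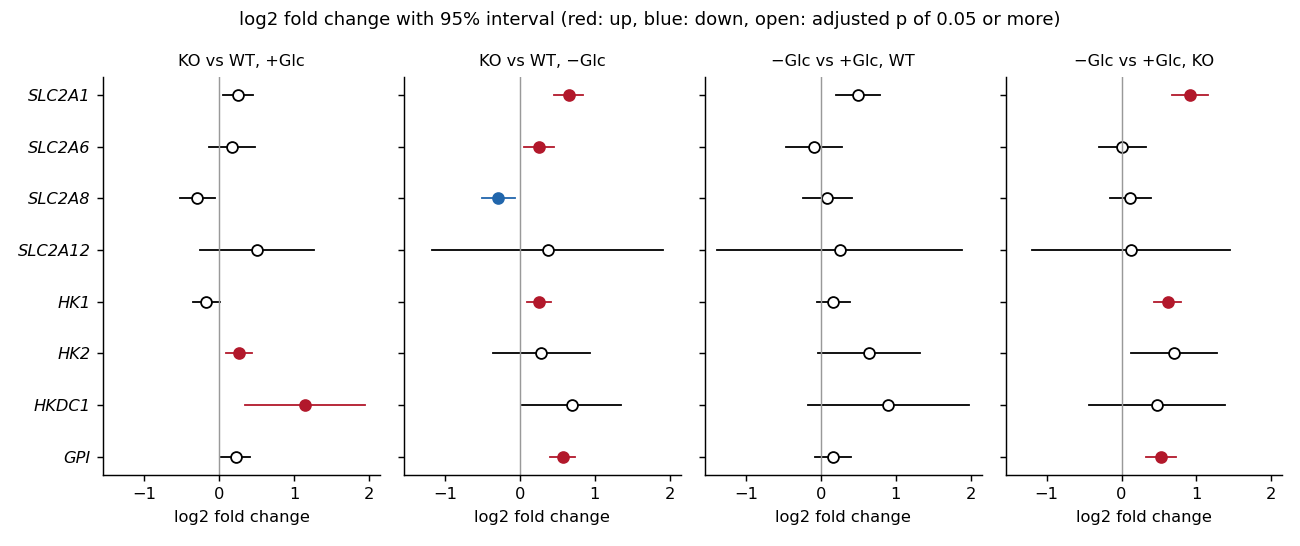
log2 fold change of the 8 tested genes (x axis) with 95% intervals from the edgeR fits, in KMT2D-KO against KMT2D-WT cells with and without glucose and in deprived against glucose-fed cells at experiment 1. Filled points passed an adjusted p of 0.05, red for higher and blue for lower. SLC2A1 lies at 0.65 and 0.92 and GPI at 0.57 and 0.53 in the deprived comparison of genotypes and in KMT2D-KO deprivation, and the intervals of SLC2A12 are the widest except with glucose, where that of HKDC1 (0.34 to 1.95) is wider.

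The promoter windows shown are those of SLC2A1, HK1, and HK2. SLC2A1 was the carrier with the highest median level over 14 libraries, although it was above SLC2A6 in only 2 of 7 libraries with glucose. HK1 and HK2 made up nearly all hexokinase mRNA. The window of GPI, which was called higher in deprived KMT2D-KO cells as SLC2A1 and HK1 were, lies inside the gene as annotated for counting and is not printed. It held 1 match to ACGTG. RefSeq gave the 250 bases before the start of 8 of the 9 genes on GRCh38.p14. In the sequences below, bases that lie inside the gene as annotated for counting are left off, and capitals mark ACGTG or GCGTG, the core that hypoxia-inducible factors and related factors are known to read, and GGGCGG, the core read by SP factors, each read on both strands.
SLC2A1, chr1:42958894-42959118, minus strand: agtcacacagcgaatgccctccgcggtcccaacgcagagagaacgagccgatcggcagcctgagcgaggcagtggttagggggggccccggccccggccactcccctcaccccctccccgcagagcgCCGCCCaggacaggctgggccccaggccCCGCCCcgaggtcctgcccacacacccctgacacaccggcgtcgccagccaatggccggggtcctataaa
HK1, chr10:69269750-69269983, plus strand: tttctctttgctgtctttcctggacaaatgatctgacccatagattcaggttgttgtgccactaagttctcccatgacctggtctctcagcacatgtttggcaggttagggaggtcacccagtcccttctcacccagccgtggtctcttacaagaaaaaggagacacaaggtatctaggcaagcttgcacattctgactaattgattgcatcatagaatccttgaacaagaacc
HK2, chr2:74833877-74834126, plus strand: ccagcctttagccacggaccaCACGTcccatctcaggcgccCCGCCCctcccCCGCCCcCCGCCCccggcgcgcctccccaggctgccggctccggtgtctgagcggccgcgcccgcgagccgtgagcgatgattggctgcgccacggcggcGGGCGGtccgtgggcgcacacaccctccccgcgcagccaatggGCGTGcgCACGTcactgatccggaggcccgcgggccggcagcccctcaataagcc
The HK2 window held 2 matches to ACGTG and 1 to GCGTG, and 4 to GGGCGG, with 76.8% G or C. The SLC2A1 window held 2 matches to GGGCGG and none to ACGTG or GCGTG, with 72.4% G or C. The HK1 window held no match to any of these and 46.8% G or C, and it lies before the most upstream annotated start, one of several that HK1 is known to have. Among the 8 windows, ACGTG or GCGTG was found in 3 (HK2, SLC2A6, and GPI) and GGGCGG in 4 (SLC2A1, SLC2A6, SLC2A8, and HK2), against 43.1% and 42.3% of 27305 promoters of the same length. Gene counts do not tell which start was used, and a match is a run of letters, not a bound site.

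SLC2A1, the carrier of basal glucose uptake, was the only one of the 4 tested carriers among the members that was called higher after deprivation (GRCh38 chromosome 1, 42925353 to 42958893, minus strand). With glucose its level was 120, 90.7, and 95.1 CPM in the KMT2D-WT libraries, of which the first is from experiment 1. In KMT2D-KO cells with glucose it was 157 (KO1) and 136 (KO2) in experiment 1 and 113 (KO1) and 101 (KO2) CPM in experiment 2. Within each experiment both KO libraries were above WT, while over both experiments the groups overlapped. The log2 fold change was 0.25 (95% interval 0.05 to 0.45, edgeR adjusted p = 0.0698), or 0.30 without the KO2 library of experiment 2 (edgeR adjusted p = 0.0458).

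Without glucose SLC2A1 was at 178, 136, and 126 CPM in KMT2D-WT libraries and at 238, 303, 218, and 209 CPM in KMT2D-KO libraries. The lowest KO library was above the highest WT library. Group means were 147 ± 27.5 (SD, n = 3) and 242 ± 42.5 CPM (SD, n = 4), and the fold adjusted for experiment was 1.56 (log2 0.65, SE 0.08, edgeR adjusted p = 8.67e-04). The call held in all 7 fits that left out 1 library (log2 0.59 to 0.69), without experiment as a covariate (0.71, edgeR adjusted p = 0.0347), and with close pairs summed (0.65, edgeR adjusted p = 0.0445).

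In experiment 1 the SLC2A1 level after deprivation was above that with glucose in each line, by 1.48-fold in WT, 1.52-fold in KO1, and 2.23-fold in KO2. The fitted change was 0.92 in KMT2D-KO cells (SE 0.11, edgeR adjusted p = 1.47e-04) and 0.50 in KMT2D-WT cells (SE 0.13, edgeR unadjusted p = 0.00283, adjusted p = 0.216). The difference between these changes, 0.42 (95% interval 0.13 to 0.71), did not pass over all genes (edgeR adjusted p = 0.0610), and it passed with RLE scaling (0.46, edgeR adjusted p = 0.0352) and with DESeq2 with experiment (0.46, adjusted p = 0.00638). It did not pass with DESeq2 without experiment (0.45, adjusted p = 0.712), without experiment in edgeR (0.41, adjusted p = 0.753), or with close pairs summed (0.41, edgeR adjusted p = 0.254). It also passed without the KO1 library with glucose of experiment 1 (0.48, edgeR adjusted p = 0.0399) and without either deprived KO library of that experiment (KO1 left out 0.49, edgeR adjusted p = 0.00666; KO2 left out 0.39, edgeR adjusted p = 0.0468). The call on this difference thus turned on the scaling, the covariate, and single libraries. In the fit without the deprived KO1 library, the WT change was 0.58 (edgeR adjusted p = 0.0206).

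**Figure D3:**
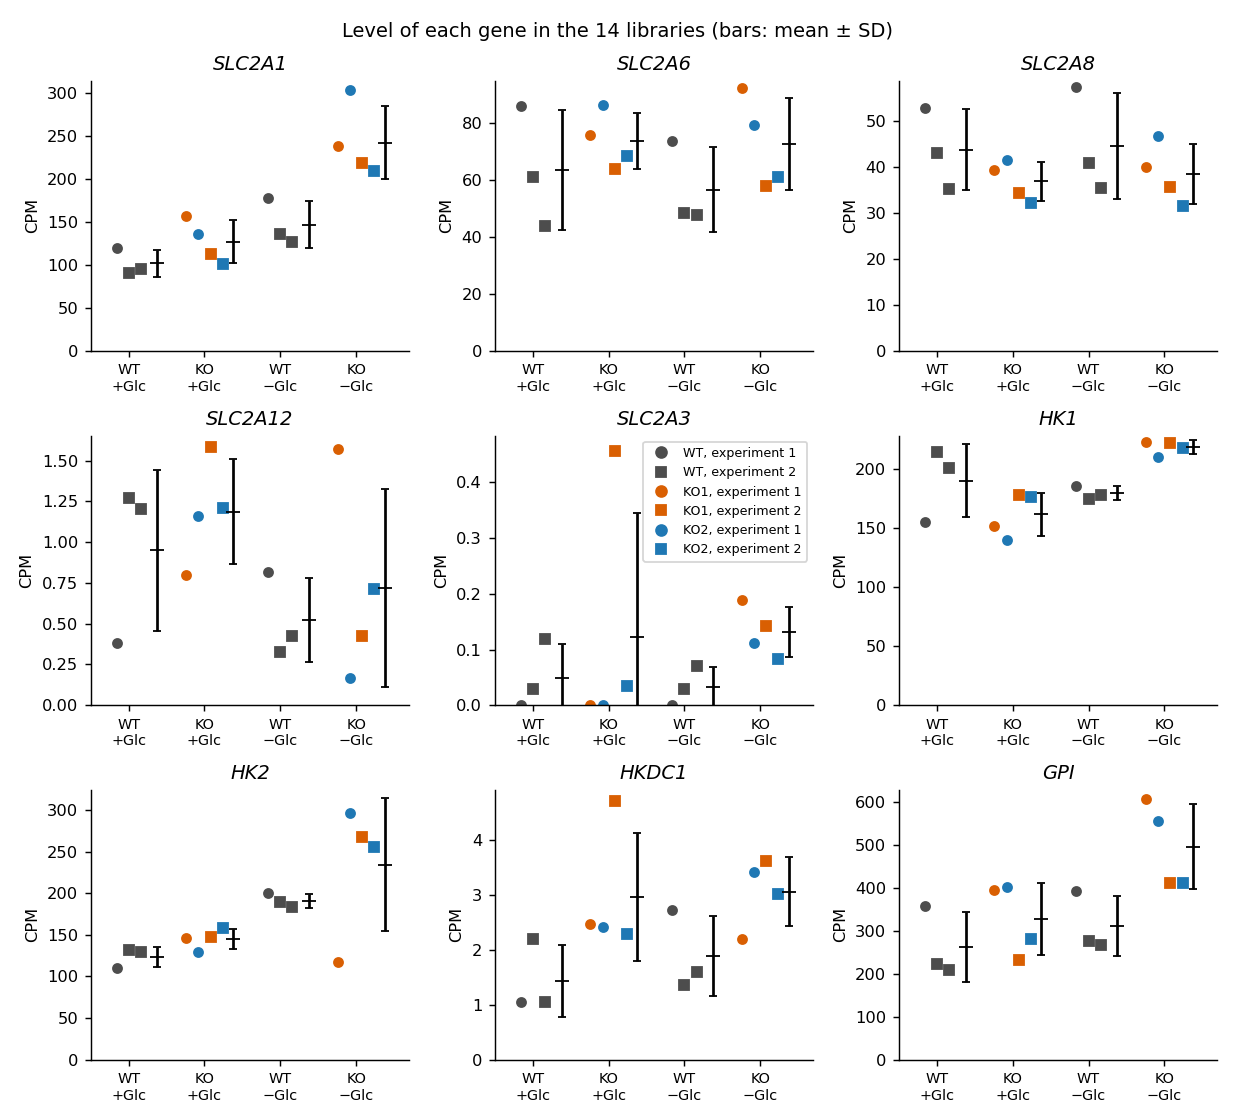
Level of each gene (CPM, axes from 0) in the 14 libraries by group, coloured by line as labelled and shaped by experiment, with the mean and SD of each group beside the points (lower ends of the SLC2A3 bars run below 0). SLC2A1 in the 4 deprived KO libraries lies between 209 and 303, above all other groups, and in HK2 the deprived KO1 library of experiment 1 at 117 lies apart from 256 to 296 in the 3 others.

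SLC2A6, a carrier of lysosomal membranes best known from macrophages, was at 85.8, 61.1, and 43.8 CPM in KMT2D-WT and at 75.6, 86.4, 64.0, and 68.3 CPM in KMT2D-KO libraries with glucose (chromosome 9, 133471094 to 133479127, minus strand). The groups overlapped, with a log2 fold change of 0.17 (95% interval -0.14 to 0.48, edgeR adjusted p = 0.415). Without glucose the values were 73.8, 48.3, and 47.7 CPM in WT and 92.2, 79.3, 57.9, and 61.0 CPM in KO libraries. Both groups were higher in experiment 1 than in experiment 2, and within each experiment the KO libraries were above WT. The fold change of 0.26 (SE 0.09, edgeR adjusted p = 0.0466) lay close to the limit. It was not called in 5 of 7 fits without 1 library (each of the 3 WT libraries or either KO library of experiment 2, edgeR adjusted p = 0.0953 to 0.164), with close pairs summed (edgeR adjusted p = 0.274), or without experiment as a covariate (0.35, edgeR adjusted p = 0.345). Deprivation did not move it detectably, with 0.01 in KO (95% interval -0.30 to 0.33) and -0.09 in WT (95% interval -0.47 to 0.28).

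SLC2A8, which resides in late endosomes and lysosomes, was the only member called lower in KMT2D-KO cells (chromosome 9, 127397138 to 127408424, plus strand). Without glucose its level was 57.5, 40.9, and 35.5 CPM in WT and 40.0, 46.8, 35.8, and 31.6 CPM in KO libraries. The ranges overlapped, and within experiment 1 both KO libraries were below WT, while in experiment 2 the KO library at 35.8 lay between the WT libraries. The log2 fold change was -0.29 (SE 0.09, edgeR adjusted p = 0.0357) and -0.32 with close pairs summed (edgeR adjusted p = 0.170). With RLE scaling it was -0.24 (edgeR adjusted p = 0.0773) and without experiment as a covariate -0.22 (edgeR adjusted p = 0.511). Leaving out the WT library of experiment 1 (-0.24, edgeR adjusted p = 0.203), the WT library at 40.9 (-0.26, edgeR adjusted p = 0.132), or the KO library at 31.6 CPM (-0.25, edgeR adjusted p = 0.141) ended the call as well. With glucose the values were 52.9, 43.2, and 35.3 CPM in WT and 39.4, 41.6, 34.5, and 32.2 CPM in KO libraries, which gave the same fold change of -0.29 (edgeR adjusted p = 0.0768), or -0.37 without the WT library at 35.3 CPM (edgeR adjusted p = 0.0463). The KO effect on SLC2A8 differed by 0.02 between glucose conditions (95% interval -0.30 to 0.35).

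SLC2A12, a carrier best known from heart, muscle, and fat, and SLC2A3, the high-affinity carrier of neurons, had the lowest levels among the members. SLC2A3 was at the limit of detection. SLC2A12 had between 3 and 104 counts in a library, 0.168 to 1.58 CPM, and was called in no comparison at the main settings (chromosome 6, 133987581 to 134052624, minus strand). Its intervals were wide, for example -1.18 to 1.91 for KMT2D-KO against KMT2D-WT cells without glucose. Exons of TBPL1 cover 51.2% of its exonic bases, where reads of either gene cannot be assigned. SLC2A3 had 0 counts in 4 libraries and between 1 and 7 in 9 others (chromosome 12, 7919230 to 7936187, minus strand). A count of 0 allows a level of up to 0.191 CPM in the shallowest of those 4 libraries, taking 3 counts of its total and counting error only. The KO1 library of experiment 2 with glucose held 30 counts, 0.456 CPM, the highest of all, and it was also the highest for HKDC1 and SLC2A12. SLC2A14, the close copy of SLC2A3 on the same chromosome, had at most 0.0614 CPM (0 to 2 counts), and the 3 annotated pseudogenes of SLC2A3 reached 14 counts.

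HK1, the hexokinase of most tissues, which binds the outer mitochondrial membrane, rose upon deprivation in KMT2D-KO cells (chromosome 10, 69269984 to 69401884, plus strand). With glucose it was at 155, 214, and 201 CPM in WT and at 152, 140, 178, and 176 CPM in KO libraries. Within each experiment the KO libraries were below WT, by a log2 fold change of -0.17 that was not called (95% interval -0.35 to 0.01, edgeR adjusted p = 0.164). Without glucose the order was inverted. WT libraries were at 186, 175, and 178 CPM, and KO libraries at 223, 210, 222, and 218 CPM, with no overlap and little spread in either group (means 180 ± 5.85, SD, n = 3, and 218 ± 5.70 CPM, SD, n = 4). The log2 fold change was 0.26 (SE 0.07, edgeR adjusted p = 0.0155), and with close pairs summed it was 0.26 with an edgeR adjusted p of 0.199. The call was lost without experiment as a covariate (0.26, edgeR adjusted p = 0.176) and in 5 of 7 fits without 1 library (each WT library or either KO library of experiment 2), where the value stayed between 0.24 and 0.27 and the edgeR adjusted p between 0.0521 and 0.0810.

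The KO effect on HK1 differed by 0.45 between glucose conditions (SE 0.10, edgeR adjusted p = 0.0156), and by 0.44 with close pairs summed (edgeR adjusted p = 0.142). Without experiment as a covariate it was 0.51 (edgeR adjusted p = 0.335), and without either deprived WT library of experiment 2 or the KO library labelled KO1 there it was 0.43 to 0.45 (edgeR adjusted p = 0.0514 to 0.0591). In experiment 1, HK1 went from 152 to 223 CPM in KO1 and from 140 to 210 CPM in KO2, 1.47-fold and 1.50-fold, and from 155 to 186 CPM in WT, 1.20-fold. The fitted change was 0.62 in KMT2D-KO cells (SE 0.08, edgeR adjusted p = 3.04e-04) and 0.17 in KMT2D-WT cells (95% interval -0.05 to 0.39, edgeR adjusted p = 0.672). At experiment 2, where the read layout also changed, the WT value was -0.18 and the KO value 0.26 (edgeR adjusted p = 0.0166). The sign in WT therefore differed between the experiments.

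HK2, the inducible hexokinase of muscle, fat, and many tumours, was called higher in KMT2D-KO cells with glucose, and its level in deprived KO libraries was split (chromosome 2, 74834127 to 74893359, plus strand). With glucose it was at 110, 132, and 129 CPM in WT and at 146, 129, 147, and 158 CPM in KO libraries. Within each experiment the KO libraries were above WT, and the ranges of the groups overlapped. The log2 fold change was 0.27 over both lines (SE 0.08, edgeR adjusted p = 0.0364), 0.27 for KO1 alone (edgeR adjusted p = 0.0296), and 0.26 for KO2 alone (edgeR adjusted p = 0.0168). It was 0.23 without experiment as a covariate (edgeR adjusted p = 0.438). It was called in 1 of 7 fits without 1 library, that without the KO1 library of experiment 2, and the 6 others gave 0.21 to 0.29 (edgeR adjusted p = 0.0558 to 0.255). Deprived WT libraries were at 200, 190, and 183 CPM. Deprived KO libraries were at 117 (KO1, experiment 1), 296 (KO2, experiment 1), 267, and 256 CPM, so that 3 were above and 1 far below WT. Over these groups the log2 fold change was 0.28 with a wide error (SE 0.27, edgeR adjusted p = 0.415). Leaving out the low KO1 library gave 0.48 (edgeR adjusted p = 1.06e-09), a p-value that then rests largely on the spread within the close pairs.

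In experiment 1, HK2 went from 110 to 200 CPM in WT (1.82-fold), from 129 to 296 CPM in KO2 (2.29-fold), and from 146 to 117 CPM in KO1 (0.801-fold). KO1 and KO2 thus lay on opposite sides of their level with glucose, with 1 library for each value and no test. The fitted change was 0.70 in KMT2D-KO cells (SE 0.26, edgeR adjusted p = 0.0651, or 0.0495 without experiment as a covariate and 0.0393 with RLE scaling) and 0.65 in KMT2D-WT cells (SE 0.31, edgeR adjusted p = 0.555). Leaving out the deprived KO1 library of experiment 1 gave 1.13 in KO (edgeR adjusted p = 2.66e-06) and 0.86 in WT (edgeR adjusted p = 0.00130). KMT2D was also lowest in this library, at 19.9 CPM. Its part in the HK2 value was not tested. The annotation names 1 pseudogene copy of HK2, HK2P1, which reached 374 counts in a library, against at least 1861 counts of HK2.

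**Figure D4:**
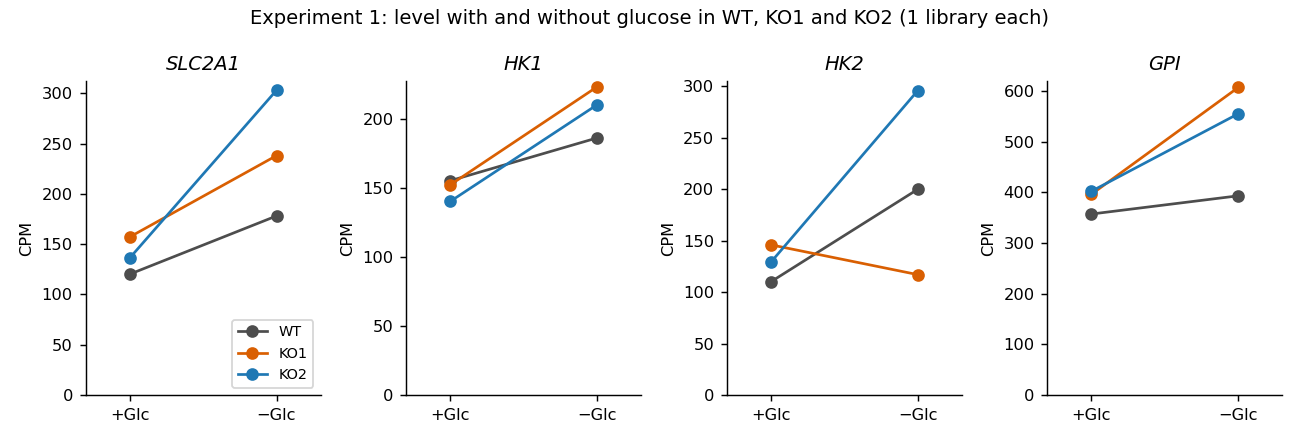
Levels (CPM, axes from 0) of SLC2A1, HK1, HK2, and GPI in experiment 1 with and without glucose, 1 library for each point, lines joining the libraries of WT, KO1, and KO2. For SLC2A1, HK1, and GPI all 3 lines are higher without glucose, WT by the smallest step for HK1 and GPI (1.20-fold and 1.10-fold), and HK2 is lower in KO1 without glucose (146 to 117) and higher in WT and KO2.

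The ratio of HK2 to HK1 was taken within each library, where scaling between libraries has no part. Per base of exon, the ratio of HK2 to HK1 counts was 0.755, 0.657, and 0.683 in WT with glucose. It was 1.02, 0.981, 0.880, and 0.952 in KO with glucose, above each WT library. In deprived WT cells it was 1.14, 1.15, and 1.09, and in deprived KO cells 0.557, 1.49, 1.28, and 1.25. Thus the ratio was under 1 in all 3 WT libraries with glucose. It was over 1 in all 3 deprived WT libraries and in 3 of 4 deprived KO libraries. Which of the genes was the more abundant rests on the exonic bases annotated over all isoforms (6293 for HK1, 5918 for HK2). The isoforms expressed were not measured. Only the deprived KO1 library of experiment 1 went the other way, where the ratio fell from 1.02 with glucose to 0.557. In WT the shift was also present within experiment 1, from 0.755 to 1.14, where read layout was the same. These ratios were chosen after the values were seen and are given without a test.

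**Figure D5:**
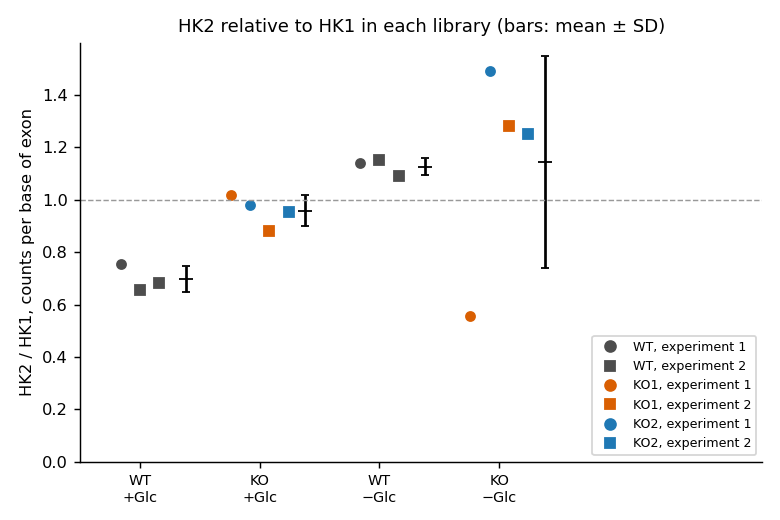
Ratio of HK2 to HK1 counts per base of exon (y axis from 0, dashed line at 1) in each library by group, coloured by line as labelled and shaped by experiment, with group mean and SD beside the points. WT libraries lie between 0.657 and 0.755 with glucose and between 1.09 and 1.15 without, and the deprived KO1 library of experiment 1 lies at 0.557.

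HKDC1, a hexokinase-like gene next to HK1 on chromosome 10 (69220332 to 69267552, plus strand), had between 25 and 310 counts in a library. With glucose it was at 1.05, 2.19, and 1.05 CPM in WT and at 2.46, 2.42, 4.71, and 2.28 CPM in KO libraries, with every KO library above every WT library, although 2.28 and 2.19 are close. The log2 fold change was 1.15 over both lines (95% interval 0.34 to 1.95, edgeR adjusted p = 0.0436), 1.44 for KO1 alone (edgeR adjusted p = 0.00187), and 0.74 for KO2 alone (edgeR adjusted p = 0.105). It was 1.05 without experiment as a covariate (edgeR adjusted p = 0.234). Leaving out the highest library, KO1 of experiment 2, gave 0.80 (edgeR adjusted p = 0.157), and the call was also lost without either KO library of experiment 1 or either WT library at 1.05 CPM (0.91 to 1.13, edgeR adjusted p = 0.0599 to 0.191). Without glucose it was at 2.72, 1.36, and 1.59 CPM in WT and at 2.19, 3.42, 3.61, and 3.01 CPM in KO libraries. Here the groups overlapped through the deprived KO1 library of experiment 1, and the log2 fold change of 0.69 was not called (95% interval 0.03 to 1.35, edgeR adjusted p = 0.0771). It was called without that library (0.85, edgeR adjusted p = 8.08e-04) and without the WT library of experiment 1 (1.11, edgeR adjusted p = 0.0305). In experiment 1, HKDC1 went from 1.05 to 2.72 CPM in WT, from 2.46 to 2.19 CPM in KO1, and from 2.42 to 3.42 CPM in KO2. The KO effect differed by -0.43 between glucose conditions, with a 95% interval of -1.49 to 0.63.

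GPI, the isomerase between the hexokinases and phosphofructokinase, was, with SLC2A1, the member whose call in deprived cells held in every fit without 1 library (chromosome 19, 34359480 to 34402413, plus strand). With glucose it was at 357, 223, and 209 CPM in WT and at 396, 402, 232, and 281 CPM in KO libraries. Experiment 1 was higher than experiment 2 in both genotypes, and within each experiment KO libraries were above WT (log2 fold change 0.22, 95% interval 0.03 to 0.41, edgeR adjusted p = 0.0963). Leaving out the KO1 library of experiment 2 gave 0.28 (edgeR adjusted p = 0.0487). Without glucose it was at 393, 276, and 267 CPM in WT and at 607, 555, 412, and 412 CPM in KO libraries. All 4 KO libraries were above all 3 WT libraries. The difference was 1.48-fold (log2 0.57, SE 0.07, edgeR adjusted p = 7.56e-04), it was 0.53 to 0.59 and called in all 7 fits without 1 library, and with close pairs summed it was 0.58 (edgeR adjusted p = 0.0431). Without experiment as a covariate it was 0.66 (edgeR adjusted p = 0.0710).

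In experiment 1, GPI went from 396 to 607 CPM in KO1 (1.53-fold), from 402 to 555 CPM in KO2 (1.38-fold), and from 357 to 393 CPM in WT (1.10-fold). The fitted change was 0.53 in KMT2D-KO cells (SE 0.09, edgeR adjusted p = 0.00143; 0.60 and 0.0995 without experiment as a covariate) and 0.16 in KMT2D-WT cells (95% interval -0.08 to 0.40, edgeR adjusted p = 0.729). The KO effect differed by 0.37 between glucose conditions (SE 0.11, edgeR adjusted p = 0.0486). That call lay at the limit and was lost without experiment as a covariate (0.35, edgeR adjusted p = 0.907), in 11 of 14 fits without 1 library (0.31 to 0.41, edgeR adjusted p = 0.0561 to 0.167; it held only without the KO library of experiment 2 with glucose labelled KO2 and without either deprived KO library of experiment 1), and with close pairs summed (0.37, edgeR adjusted p = 0.234).

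Between the knockout lines with glucose, 0 of 8 members were called by edgeR, where 14.7% of all genes were called. Counts by unadjusted p under 0.05 and by DESeq2 were also 0. The largest difference was in HKDC1, at 0.62 (KO1 over KO2, 95% interval -0.09 to 1.33). For HK2 the interval was -0.16 to 0.20 and for HK1 -0.12 to 0.23, whereas KMT2D itself was lower in KO1 by -0.94 (SE 0.08, edgeR adjusted p = 7.87e-07). With WT as the reference, KO1 alone gave 0.34 for SLC2A1 (edgeR adjusted p = 0.00690) and KO2 alone 0.16 (edgeR adjusted p = 0.151), and GPI was called in KO2 alone (0.30, edgeR adjusted p = 0.00886). These single-line calls do not show that the lines differ, since the direct comparison called neither gene.

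Of 17 other glucose or hexose carriers and hexokinases, 6 were tested with glucose and 4 without, and 1 of the 17 had no count in any library. Between genotypes, 2 were higher and 1 lower in KMT2D-KO cells with glucose (SLC2A9, SLC2A13, and SLC2A11), and likewise without glucose, where 24.7% and 50.8% of all genes were called. SLC2A9, known mainly as a urate carrier (chromosome 4, 9771153 to 10054936), was at 7.80 to 10.4 CPM in WT and 15.5 to 18.4 CPM in KO libraries with glucose, and at 6.35 to 7.66 and 21.2 to 28.2 CPM without. Its log2 fold change was 0.96 with glucose (edgeR adjusted p = 0.00187) and 1.73 without (edgeR adjusted p = 8.29e-05), and the difference of 0.80 was called as well (SE 0.18, edgeR adjusted p = 0.0149). SLC2A13, a proton-coupled myo-inositol carrier (chromosome 12, 39755025 to 40106089), was at 1.18 to 3.88 CPM in WT and 4.30 to 10.8 CPM in KO libraries with glucose, a log2 fold change of 1.72 (edgeR adjusted p = 0.00102), and 1.44 without (edgeR adjusted p = 4.16e-04). SLC2A11, a carrier of glucose and fructose (chromosome 22, 23856703 to 23886309), was at 16.2 to 19.8 CPM in WT and 6.63 to 8.67 CPM in KO libraries with glucose. Without glucose it was at 19.1 to 23.2 and 5.50 to 8.02 CPM. These are log2 fold changes of -1.14 (edgeR adjusted p = 5.67e-04) and -1.69 (edgeR adjusted p = 7.81e-05). In all 3 genes the genotypes did not overlap in either glucose condition. Alternative fits were taken for the members only, so the calls of these 3 genes were not tried with other settings. Genes whose exons overlap cover 18.4% of the exonic bases of SLC2A11. Upon deprivation, 1 of 4 tested was higher in KMT2D-KO cells (SLC2A9, 0.59, edgeR adjusted p = 0.00859) and 0 in WT by edgeR.

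Of 13 other enzymes and carriers around glucose 6-phosphate, some act on that sugar and others on fructose 6-phosphate, the product of GPI, and 11 were tested. With glucose 2 were higher and 1 lower in KMT2D-KO cells (24.7% of all genes called), and without glucose 5 were higher and 1 lower (50.8% of all genes called), both near the background, with median log2 fold changes of 0.01 and 0.31. Of the 5, 3 were the phosphofructokinases PFKL (0.47), PFKM (0.38), and PFKP (0.38), which use fructose 6-phosphate and are named here after their values were seen. Upon deprivation 3 were higher and 1 lower in KMT2D-KO cells (27.2% of all genes called), with a median of 0.32, and 0 were called in WT by edgeR, with a median of 0.10. The gene that fell most was H6PD, the enzyme that oxidizes glucose 6-phosphate inside the endoplasmic reticulum (chromosome 1, 9234774 to 9271337). It was at 27.0 to 28.0 CPM in WT and 11.6 to 22.4 CPM in KO libraries with glucose, and at 30.6 to 37.0 and 6.89 to 10.6 CPM without. The log2 fold change was -0.71 with glucose (SE 0.18, edgeR adjusted p = 0.0219) and -1.97 without (SE 0.13, edgeR adjusted p = 8.89e-05), and it differed between conditions by -1.23 (SE 0.26, edgeR adjusted p = 0.0121). These calls, too, were not tried with other settings.

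Over the 14 libraries, after log2 CPM was centred within each experiment and glucose condition, SLC2A1 and GPI had the highest Pearson correlation among pairs of members (0.84, n = 14), and SLC2A6 and GPI followed (0.73). HK1 and HK2 were near 0 (0.05), and SLC2A8 ran against GPI (-0.68) and SLC2A1 (-0.59). These libraries share genotype and, in experiment 2, close pairs, so the values describe the set and carry no test. Among 14268 genes compared, genes among the 2 most like each well-expressed member were CDC42EP3 and PRKAB2 for SLC2A1 (both 0.98), GAPDH and HLA-E for GPI (both 0.99), TMBIM1 and TRIM35 for HK1 (0.97 and 0.95), FAM83H for HK2 (0.98), SIVA1 and RPL21P28 for SLC2A6 (0.97 and 0.93), and SLC35E2A and ARHGEF1 for SLC2A8 (0.97 and 0.96). For the genes of low level, they were FAM171A1 and KIRREL1 for HKDC1 (0.93 and 0.92), EEF1A1P1 and PUDP for SLC2A12 (0.92 and 0.88), and RPL5P3 and SRRM1P3 for SLC2A3 (0.91 and 0.89). SLC2A3 had 0 counts in 4 libraries and 30 in the KO1 library of experiment 2 with glucose, its highest. Its correlations therefore rest on very few counts and say little about likeness.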

How the data were processed

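Per the file headers, the authors counted reads over Ensembl 102 genes (GRCh38) with featureCounts 2.0.3, unstranded and with primary alignments, after alignment with HISAT2 (the study's methods instead name uniquely mapped reads, which bears on genes with pseudogene copies such as SLC2A3 and HK2), and deposited raw counts per gene in 1 file per library. Reads that overlapped more than 1 gene were not counted. From these counts, genes were filtered with filterByExpr (minimum count 10) and scaled by TMM, and edgeR 4.0.16 in R 4.3.3 gave quasi-likelihood tests with Benjamini-Hochberg adjustment (threshold 0.05). The study's methods name DESeq2 without a covariate, which served as an alternative (version 1.42.0). Genotypes were compared within each glucose condition over 7 libraries. A fit over all 14, with experiment nested in glucose, gave the effect of deprivation at experiment 1 and the difference in KO effect. Experiment numbers come from the labels and were taken to pair the samples. Between-experiment differences in WT and KO correlated at 0.95 with glucose and 0.86 without over 14144 and 14163 genes. With glucose the read layout changed between the experiments in both genotypes, so that correlation cannot show the pairing. Intervals are 95% intervals. Other genes were named if called with a log2 fold change of at least 1 in size, and for each member the 2 genes most correlated, among genes with a mean of at least 1 CPM (prior count 2 in log2 CPM). 1 of these genes is not reported here. Members, lists, and tests were chosen with earlier results of these data known. The tests were tried on simulated data. Total counts per library (15669154 to 62968057) limit the precision for HKDC1, SLC2A12, and SLC2A3, and intervals at 0 counts cover counting error only. Promoter sequences are from RefSeq (GRCh38.p14).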

Additional observations from a re-analysis of the deposited data

Results flagged for a closer look

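The KO effect differed between glucose conditions by 0.45 for HK1, 0.37 for GPI, 0.80 for SLC2A9, and -1.23 for H6PD on the log2 scale (edgeR adjusted p = 0.0156, 0.0486, 0.0149, and 0.0121). With close pairs summed, the calls of HK1 and GPI were lost, and calls over all genes fell from 2105 to 258. SLC2A9 and H6PD were not refitted in this way, so whether their calls would hold was not tested. KO1 differed from KO2 with glucose by -0.94 for KMT2D and by 0.59 for H6PD (edgeR adjusted p = 7.87e-07 and 0.00348). Among KMT2D-KO libraries with glucose, 1 library lay far from the 3 others by Dixon's test for SLC2A3 (0.456 CPM), HKDC1 (4.71 CPM), and SLC2A14 (0.0614 CPM), in the first 2 genes the KO1 library of experiment 2. The value of SLC2A14 is 1 read against 0 in the 3 others, so its distance carries no weight. These were 3 of 37 groups of 4 libraries examined, of which chance gives about 1 in 20.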

How the results depend on the processing

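Of the refitted fold changes of members, 773 stayed on their side of the threshold, 81 lost a call, 33 gained one, and 1 reversed with a call, SLC2A12 upon deprivation in KO at experiment 2 (-1.57, against 0.13 at experiment 1), where read layout changed too. The sign differed in 68 others that were called in neither fit. Only a result called in its main fit could lose a call. Of 8 members tested in each comparison, 2 were called with glucose and 5 without. For the difference 2 were called, and for deprivation in KO 3. The 81 lost calls are therefore not a share of all refits. Without the replicate block, members called fell from 2 to 0 with glucose, from 5 to 1 without, and from 2 to 0 for the difference, and over all genes from 5042 to 971, from 8521 to 3659, from 2105 to 70, from 5087 to 3220 (KO deprivation), and from 3215 to 11 (KO1 against KO2). DESeq2 without experiment called 0, 2, and 0 members in the first 3, and 2228, 4887, and 482 genes, with 583 for deprivation in WT and 241 between lines. DESeq2 with experiment called 1 member for deprivation in WT (SLC2A1; 272 genes against 34), and 3423 genes for the difference, 1807 higher and 1616 lower, against 884 and 1221 in edgeR. Without the filter on low counts, 1 member was called with glucose (6122 genes), 0 for the difference (2433 genes), and 1 (HK2) for deprivation in WT (226 genes). In deprived cells, where 10122 genes were called that way, HK2 and HKDC1 gained a call between genotypes and SLC2A6 lost its call. Experiment 1 alone called 0 members in each of the 4 comparisons with calls (304, 0, 0, and 20 genes), and experiment 2 alone called 0 with glucose (2336 genes), with 12888 genes without. Close pairs summed left 2 members without glucose and 0 for the difference (2785 and 258 genes). Deprivation at experiment 2 called 2 members in WT and 5 in KO (5296 and 9679 genes), and the mean of both experiments 1 in WT (3054 and 9823 genes). Leaving out 1 library gave 0 to 2 members with glucose, 2 to 7 without, 0 to 3 for the difference, 0 to 2 for deprivation in WT, and 3 to 4 in KO, and each of these highest counts but the first was reached without the deprived KO1 library of experiment 1. Over all genes, these fits called 2142 to 5048 with glucose, 6031 to 12448 without, and 788 to 4230 for the difference. They called 1 to 325 genes for deprivation in WT and 3919 to 6328 in KO. The highest of these counts over all genes, but for the first, also came without that KO1 library. The causes were not tested. Depth limits SLC2A3 and SLC2A12.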
